A study of Homo sapiens with 16 samples.

Results

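The transcriptome of HCT116 cells, an established line from a human colon carcinoma, was compared with and without 2 combined changes to the ubiquitin system. One change is in the genotype, a truncated Rpn10 that lacks its ubiquitin interacting motif, and the other is an siRNA knockdown of OTUD5. The compared libraries are those whose library name and treatment label give truncation cells with OTUD5 siRNA (truncation knockdown cells below, 4 libraries) and control-genotype cells with scrambled siRNA (WT scramble cells below, 4 libraries), so 8 of the 16 libraries of the series. The other 8 are control-genotype cells with OTUD5 siRNA (WT knockdown) and truncation cells with scrambled siRNA (truncation scramble), 4 each. All 4 groups share the line and the transfection: every culture received 50 nM siRNA for 48 h by reverse transfection with Lipofectamine RNAiMAX, the OTUD5 siRNA being a mix of 4, in McCoy 5A medium. No untransfected culture is among the labelled groups. Sample titles call the 4 truncation knockdown libraries scramble, in conflict with their library name and treatment label, and the latter were followed. Whether the truncation line is 1 clone is not given in the sources used here, so genotype and any difference between lines cannot be told apart. The comparison covers all tested genes, and the genes named below were picked from them by the size of their change or by the gene lists they stand in.

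The proteasome degrades proteins that carry ubiquitin chains. Its regulatory particle recognises the chains through receptor subunits, of which Rpn10, encoded by PSMD4, is one, and the ubiquitin interacting motif is the part that binds ubiquitin. When proteasome capacity falls short, the transcription factor NFE2L1 is known to raise the genes of proteasome subunits together. OTUD5 is a deubiquitinase of the OTU family, an enzyme that removes ubiquitin from proteins, and it is known for roles in lineage specification and in the stability of chromatin regulators. HCT116 cells carry functional p53, whose targets include the cell cycle inhibitor CDKN1A.

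Totals lay between 28777244 and 29645663 counts per library, and 17104 genes passed the filter on low counts. The epithelial markers EPCAM (211 to 237 CPM, the count relative to the TMM-scaled library total, in WT scramble and 107 to 122 in truncation knockdown libraries), CDH1, KRT8, KRT18 and KRT19 were present in all 8 libraries, and so was the intestinal factor CDX2 (20.6 to 22.1 and 20.4 to 23.5 CPM). The enterocyte markers VIL1 and LGALS4 were near 0 in all 8. One library stood apart. WT scramble replicate 4 summed to 36.3 CPM over 16 leukocyte markers, against 10.1 to 11.5 in the other 3 WT scramble libraries and 9.37 to 12.9 in the truncation knockdown libraries. In it PTPRC, the leukocyte antigen CD45, was at 11.6 CPM against 0.0693 to 0.242 in the other 3, and 42 genes lay at least 3-fold above the other 3 libraries at 1 CPM or more. No gene did so in any of the other 3. Of those 42 genes, 17 were called lower in truncation knockdown cells. Without this library PTPRC went from -3.94 to 0.24 on the log2 scale (adjusted p by edgeR = 0.817), LAPTM5 from -3.00 to -1.03 (adjusted p by edgeR = 0.162), and leukocyte markers called lower went from 5 to 2, so neither gene is read as changed. Summed fibroblast and endothelial markers lay at 50.7 to 60.7 CPM in WT scramble and 43.0 to 49.1 in truncation knockdown libraries, with none of the 16 at 0 in all 8.

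The knockdown target comes first, as a check of the labels. OTUD5 (ENSG00000068308, chrX:48922028-48958386) counted 90.4, 88.1, 83.7 and 90.9 CPM in WT scramble replicates 1 to 4 and 19.9, 19.4, 22.5 and 22.1 in truncation knockdown replicates 1 to 4. All 4 truncation knockdown libraries, those with the conflicting titles, lay far below the scramble libraries. In counts they held 566 to 681 reads against 2419 to 2589. The log2 fold change was -2.07 ± 0.07 (here and below, a log2 fold change ± its SE from the fit, n = 4 against 4, adjusted p = 5.43e-18 by edgeR's quasi-likelihood test with Benjamini-Hochberg adjustment). WT knockdown cells averaged 20.1 CPM, so the residual level was close in both knockdown groups, and the test of a difference in knockdown between genotypes gave -0.03 ± 0.10 (adjusted p = 0.912 by edgeR). Of 15 measured OTU-family deubiquitinases, OTUD5 included, 6 were called higher and 5 lower, where 33.2% of all tested genes were higher and 33.5% lower, with OTUD6B at -1.16 ± 0.08, OTUB2 at -0.64 ± 0.09 and TNFAIP3, an inhibitor of NF-kB signalling, at 0.72 ± 0.09.

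PSMD4 (ENSG00000159352, chr1:151254703-151267479), the gene of Rpn10, counted 236, 228, 225 and 255 CPM in WT scramble and 340.2, 338, 309 and 313 CPM in truncation knockdown libraries, with no overlap. It rose by 0.46 ± 0.06, and all 4 truncation knockdown libraries lay above the other 12. Truncation scramble libraries lay at 195 to 205 CPM and WT knockdown cells averaged 264, so the combined level lay above the sum of the single changes by 0.54 ± 0.08 (adjusted p = 0.000347 by edgeR). A count over the whole gene cannot show the missing motif and does not check the genotype.

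Most of the expressed genome differed between truncation knockdown and WT scramble cells. Of 17104 tested genes 11409 (66.7%) were called at an adjusted p under 0.05, 5673 higher (33.2%) and 5736 lower (33.5%). At least 2-fold changes were fewer, 1295 genes higher (7.57%) and 1626 lower (9.51%). The 4 and 4 libraries did not overlap for 10245 genes (59.9%), of which 5054 were higher (29.5%) and 5191 lower (30.3%). Without WT scramble replicate 4 the calls were 5544 higher and 5595 lower. The median log2 fold change over all tested genes was 0.0016, and every list median below is to be read beside it, as the counts of called list members are beside the 33.2% and 33.5%. The scaling of libraries centres most genes near 0, so a shift shared by all genes could not be seen. In all 4 truncation knockdown libraries 1586 genes (9.27%) stood above, and 1730 (10.1%) below, each of the other 12 libraries.

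**Figure D1:**
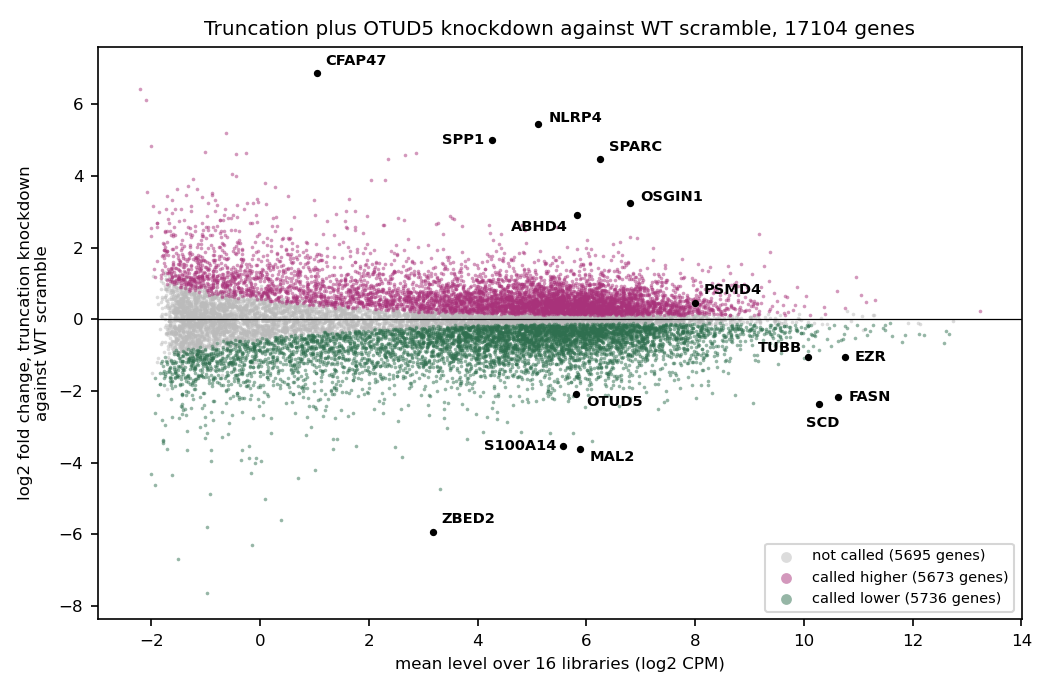
Each point is 1 of 17104 genes, with its mean level over 16 libraries (log2 CPM) on the x axis and its log2 fold change between truncation knockdown and WT scramble cells (4 libraries each) on the y axis, coloured by call. Called genes lie at many levels, with a mean log2 CPM of 1.04 for CFAP47 and 10.6 for FASN. The log2 fold change was 5.44 for NLRP4, -5.92 for ZBED2, -2.17 for FASN and -1.05 for EZR.

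NLRP4, SPP1 and SPARC were among the 15 genes with the largest rises. Only called genes without overlap that averaged a log2 CPM of 1 or more were ranked. NLRP4 counted 1.29, 1.28, 1.45 and 2.32 CPM in the WT scramble libraries and 68.0, 72.1, 70.9 and 64.0 in the truncation knockdown libraries (NLRP4, ENSG00000160505, chr19:55836578-55881854, encodes a NOD-like receptor). The groups did not overlap and the change was 5.44 ± 0.11 (adjusted p = 9.97e-22 by edgeR). SPP1 counted 1.47, 1.07, 0.796 and 1.14 CPM in the WT scramble libraries and 32.3, 39.5, 36.8 and 36.6 in the truncation knockdown libraries, a change of 5.01 ± 0.12, and it encodes the secreted matrix protein osteopontin. SPARC counted 2.51, 3.29, 2.87 and 4.18 CPM in the WT scramble libraries and 63.1, 72.9, 77.5 and 69.3 in the truncation knockdown libraries. SPARC (ENSG00000113140, chr5:151661096-151687165), a secreted matricellular protein, rose by 4.46 ± 0.11, but its level in truncation scramble cells was higher still, 228 CPM. The growth factor EGF rose by 4.46 ± 0.19, the ErbB4 ligand NRG4 by 3.01 ± 0.19, the receptor gene LRP1B by 3.89 ± 0.19 and the small GTPase RAB7B by 3.36 ± 0.16. All 4 were at 0.446 to 0.569 CPM on average in WT scramble cells and at 4.61 to 9.93 CPM in truncation knockdown cells. CFAP47, a cilia-associated gene, had 3 counts in the 4 WT scramble libraries together and 426 in the 4 truncation knockdown libraries, a ratio of 136.2 after scaling (95% exact interval 46.3 to 663, counting error only).

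Among the same 15 genes were OSGIN1, ABHD4 and AKR1B10. OSGIN1 counted 28.4, 26.7, 24.5 and 25.4 CPM in the WT scramble libraries and 259, 266, 212 and 263 in the truncation knockdown libraries. OSGIN1, an oxidative stress response gene, thus rose by 3.25 ± 0.08 with no overlap. ABHD4, a lipid hydrolase, went from between 14.4 and 15.5 CPM to between 102 and 120.2 CPM (2.92 ± 0.07). AKR1B10, an aldo-keto reductase, rose from between 0.450 and 0.628 to between 11.4 and 14.1 CPM (4.58 ± 0.15). SNORD3A, a U3 small nucleolar RNA, rose by 4.65 ± 0.17, but its near-identical copies can share reads, so the assignment to this copy is uncertain. ENSG00000224888, annotated as antisense and with no symbol, rose by 3.02 ± 0.26. Without a known strand setting its reads cannot be told from those of its partner.

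ZBED2, MAL2 and S100A14 were among the 15 genes with the largest falls, ranked under the same limits of level and overlap. ZBED2 counted 23.9, 23.6, 25.4 and 27.6 CPM in the WT scramble libraries and 0.201, 0.446, 0.396 and 0.599 in the truncation knockdown libraries. ZBED2 (ENSG00000177494, chr3:111592900-111595443), a zinc finger transcription factor, fell by 5.92 on the log2 scale (SE 0.18, adjusted p = 1.04e-18 by edgeR) and ended below 1 CPM in all 4 libraries. MAL2 counted 114, 119, 121 and 104 CPM in the WT scramble libraries and 11.1, 8.62, 9.41 and 8.59 in the truncation knockdown libraries. MAL2, which takes part in apical transport in epithelial cells, changed by -3.61 ± 0.08. S100A14 counted 105, 104, 101 and 109.8 CPM in the WT scramble libraries and 9.11, 8.96, 10.8 and 7.29 in the truncation knockdown libraries, a change of -3.54 ± 0.11 for this calcium-binding protein. HS3ST1, a heparan sulfate sulfotransferase, went from between 129 and 139.7 to between 11.9 and 14.3 CPM (-3.40 ± 0.08), and ACSL5, which activates long-chain fatty acids, from between 109 and 115 to between 9.75 and 15.6 (-3.16 ± 0.10). SCNN1A, a subunit of the epithelial sodium channel, went from between 80.7 and 86.5 to between 8.17 and 10.8 CPM (-3.16 ± 0.13). The tyrosine kinase SYK changed by -3.83 ± 0.13, the transcription factor MECOM by -3.63 ± 0.22, TMEM200A by -4.73 ± 0.17 and the adhesion receptor ADGRF1 by -3.16 ± 0.08. Also among the 15 largest falls were MXRA8 (-3.52 ± 0.20), DDN (-3.34 ± 0.10), MEIOSIN (-3.34 ± 0.22) and LINC02458 (-3.35 ± 0.25).

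**Figure D2:**
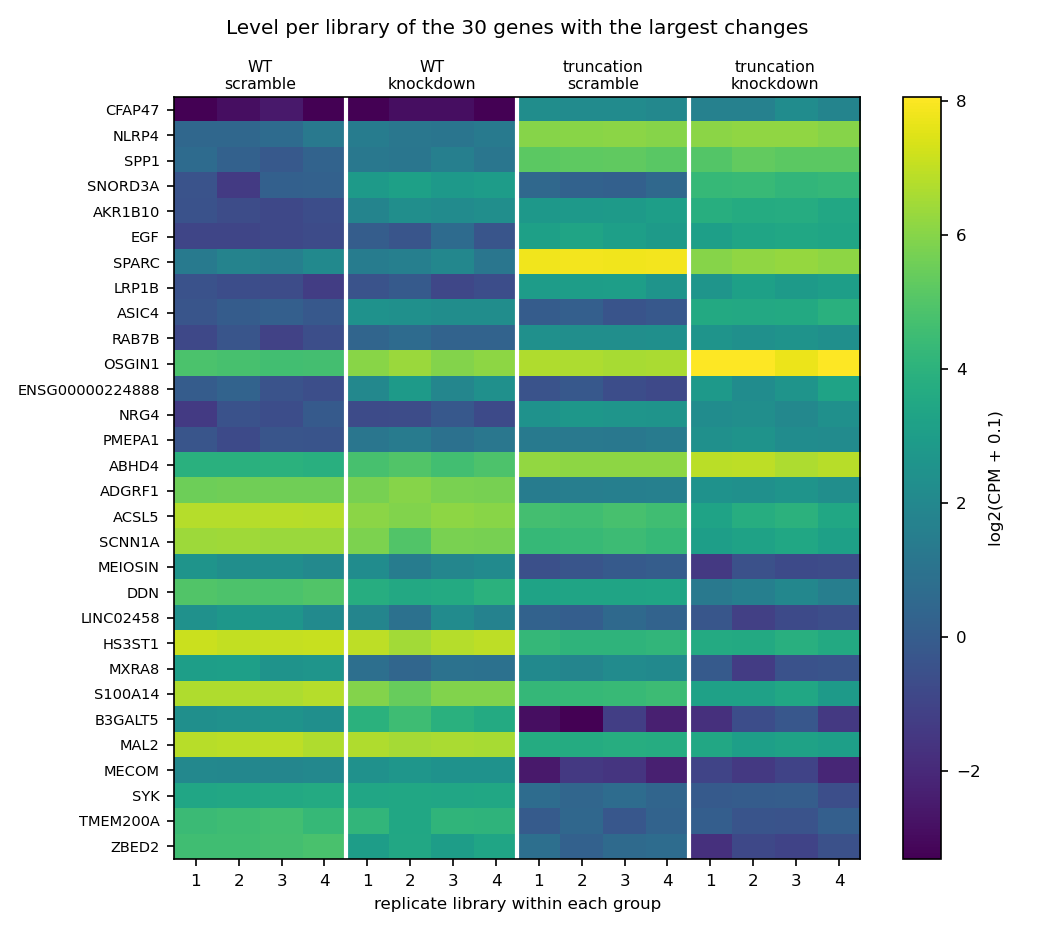
Columns are the 16 libraries by group and rows the 15 genes with the largest rise and the 15 with the largest fall, coloured by log2(CPM + 0.1). The rows of NLRP4, SPARC and MAL2 change mostly with the genotype (NLRP4 averaged 65.3 CPM in truncation scramble and 68.8 in truncation knockdown cells), those of ASIC4 and SNORD3A mostly with the knockdown.

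Proteasome genes were higher as a group. All 33 measured subunit genes of the 26S proteasome were called higher, where 33.2% of all tested genes were, and 12 of them at least 2-fold. The median was 0.82, from 0.14 for the deubiquitinating subunit PSMD14 to 1.49 for the ATPase PSMC4. PSMC4 counted 211, 189, 205 and 232 CPM in the WT scramble libraries and 609, 608, 564 and 563 in the truncation knockdown libraries. The call of PSMD14 (0.14 ± 0.05) was lost without WT scramble replicate 1, 2 or 3 or truncation knockdown replicate 1, 2 or 3 (adjusted p by edgeR up to 0.114), which left 32 members called. With offsets centred by GC content the log2 fold change of PSMD14 was -0.0098. For PSMC4 every truncation knockdown library lay above every WT scramble library, and the change was 1.49 ± 0.06 (adjusted p = 1.41e-16 by edgeR). PSMB6, a catalytic subunit, went from between 163 and 183 to between 409 and 473 CPM (1.36 ± 0.07), and the ATPase PSMC2 rose by 1.36 ± 0.06. PSMA2 was at only 2.60 and 6.40 CPM on average (1.30 ± 0.13), and whether its reads are shared with an overlapping gene was not tested. The median in truncation scramble cells was 0.79 and in WT knockdown cells 0.10, both against the same WT scramble libraries, and 2 members, PSMD4 and PSMA2, lay above the sum of the single changes. For PSMA2 that call was lost in 5 of 14 alternatives (adjusted p by edgeR up to 0.0641), each of which left out 1 library. Activators and assembly factors were mixed, 9 of 19 higher and 7 lower. PSME4, a proteasome activator, was at 1.16 ± 0.06, the maturation factor POMP at 0.93 ± 0.07, ZFAND2A at 1.01 ± 0.10 and ZFAND5 at 0.94 ± 0.05.

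Promoters of subunit genes were searched for TGACNNNGC, the core of the antioxidant response element that NFE2L1 and NRF2 bind, on both strands of the 250 bases before the RefSeq start (GRCh38.p14). It was found in 4 of 28 subunit genes with a listed promoter (14.3%) and in 11% of 27305 promoters, and in 6 of 21 NRF2 targets (28.6%). Among subunit genes that hold the match, PSMD12 rose by 0.95 ± 0.06, PSMD3 by 0.90 ± 0.05 and the ubiquitin receptor ADRM1 by 0.77 ± 0.07. Their windows were picked because they hold the match, which capitals mark. They are PSMD12 at chr17:67366578-67366827 on the minus strand, PSMD3 at chr17:39980557-39980806 on the plus strand and ADRM1 at chr20:62302646-62302895 on the plus strand. A match is a description of the letters only.
PSMD12: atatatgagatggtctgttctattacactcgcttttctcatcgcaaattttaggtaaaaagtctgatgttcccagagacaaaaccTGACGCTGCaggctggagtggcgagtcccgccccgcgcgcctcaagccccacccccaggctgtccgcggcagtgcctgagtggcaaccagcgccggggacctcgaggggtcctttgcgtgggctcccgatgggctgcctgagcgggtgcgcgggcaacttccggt
PSMD3: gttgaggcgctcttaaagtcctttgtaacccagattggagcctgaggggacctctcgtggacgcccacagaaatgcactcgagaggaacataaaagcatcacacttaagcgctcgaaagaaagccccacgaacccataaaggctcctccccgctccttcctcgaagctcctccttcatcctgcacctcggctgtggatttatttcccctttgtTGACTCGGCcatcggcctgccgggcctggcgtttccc
ADRM1: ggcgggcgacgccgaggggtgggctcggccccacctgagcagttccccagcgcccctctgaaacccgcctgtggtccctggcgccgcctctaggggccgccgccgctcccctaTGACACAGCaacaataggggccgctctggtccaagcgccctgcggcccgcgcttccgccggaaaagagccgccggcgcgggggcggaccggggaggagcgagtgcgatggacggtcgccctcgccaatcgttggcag

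Genes that handle ubiquitin and autophagy cargo were mostly higher. SQSTM1 counted 267, 246, 242 and 256 CPM in the WT scramble libraries and 753, 781, 675 and 739.7 in the truncation knockdown libraries. This autophagy receptor for ubiquitylated proteins rose by 1.55 ± 0.06, and no library of the other 3 groups reached the truncation knockdown level. Of 26 measured genes that deliver or extract ubiquitylated proteins 15 were higher and 9 lower (median 0.47), with the p97 cofactors UFD1 at 1.27 ± 0.06 and NPLOC4 at 1.26 ± 0.05 and FAF2 at 1.19 ± 0.05. Among autophagy and lysosome genes 23 of 33 were higher and 5 lower (median 0.42), and 3 lower with no filter on low counts. The autophagosome gene GABARAPL1 rose from between 42.3 and 51.4 to between 209 and 229.9 CPM (2.26 ± 0.06), the lysosomal protease CTSD by 1.20 ± 0.09 and the lysosomal enzyme GLA by 1.04 ± 0.06, while the lysosomal channel MCOLN1 changed by -1.15 ± 0.09.

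Of 28 measured targets of NRF2, a transcription factor of the antioxidant response, 19 were higher and 7 lower (median 0.55), where 33.2% and 33.5% of all tested genes were, and 13 stood above all other 12 libraries, where 9.27% did. Besides AKR1B10 and OSGIN1, the glutathione synthesis gene GCLM rose by 2.00 ± 0.08 and the haem-degrading enzyme HMOX1 by 2.09 ± 0.11. HMOX1 counted 33.5, 27.0, 28.2 and 33.5 CPM in the WT scramble libraries and 133, 145, 113 and 131 in the truncation knockdown libraries, with no overlap. WT knockdown cells had more HMOX1 still, 161 CPM, against 38.7 in truncation scramble cells. Of 30 ATF4 response genes 13 were higher and 6 lower (median 0.12), against the same 33.2% and 33.5%. The pro-apoptotic factor DDIT3 was at 1.48 ± 0.14, CHAC1, which degrades glutathione, at 1.59 ± 0.12 and ATF3 at 1.69 ± 0.12. SHMT2, a mitochondrial enzyme of serine and folate metabolism, went the other way, from between 287 and 315 to between 56.4 and 69.9 CPM (-2.30 ± 0.07).

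p53 targets were higher, 25 of 28 members against 2 lower (median 0.76). CDKN1A counted 318, 307, 313 and 296 CPM in the WT scramble libraries and 1227, 1165, 1022 and 1105 in the truncation knockdown libraries. The cell cycle inhibitor CDKN1A thus rose by 1.87 ± 0.05 with no overlap (adjusted p = 4.57e-19 by edgeR). GDF15 counted 227, 209, 202 and 232 CPM in the WT scramble libraries and 1064, 1281, 993 and 1202 in the truncation knockdown libraries, a rise of 2.38 ± 0.07 in this secreted stress cytokine. PHLDA3, an inhibitor of AKT signalling, rose by 1.88 ± 0.08 and TNFRSF10C, a decoy receptor of TRAIL, by 1.97 ± 0.13. The members called lower were the DNA repair gene DDB2 (-0.56 ± 0.06) and FDXR (-0.18 ± 0.07), and the call of FDXR was lost without WT scramble replicate 1 or 2 or truncation knockdown replicate 2 or 3 (adjusted p by edgeR up to 0.121) and turned to 0.16 with offsets centred by GC content. The list median was 0.74 in WT knockdown and 0.17 in truncation scramble cells. Of the BCL2 family 7 of 18 were higher and 9 lower. BMF, a pro-apoptotic member, went from between 1.21 and 1.29 to between 6.39 and 7.65 CPM (2.42 ± 0.12) and PMAIP1, also pro-apoptotic, rose by 1.36 ± 0.08, while BCL2L2, an anti-apoptotic member, changed by -1.67 ± 0.07 and BCL2L12 by -1.34 ± 0.06.

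DNA replication genes were lower, 33 of 38 members with none higher (median -0.80), and 26 stood below all other 12 libraries, where 10.1% of tested genes did. With upper-quartile scaling, or without truncation knockdown replicate 3, 1 member was called higher. Fewer dividing cells and less RNA per cell cannot be told apart in these bulk libraries. GINS1 counted 61.4, 59.2, 66.0 and 63.8 CPM in the WT scramble libraries and 14.2, 15.8, 17.4 and 14.7 in the truncation knockdown libraries, without overlap. GINS1, a subunit of the replicative helicase complex, changed by -2.01 ± 0.07 (adjusted p = 4.08e-18 by edgeR). POLD1, the catalytic subunit of DNA polymerase delta, changed by -1.83 ± 0.08, the DNA ligase LIG1 by -1.80 ± 0.08 and GINS2 by -1.58 ± 0.07. The sliding clamp PCNA was at 0.08 ± 0.06 and was 1 of 5 members that were not called. The E2F site, searched as TTTCGCGC or TTTGGCGC on both strands, was in 5 of 32 listed replication promoters (15.6%) and in 0.996% of all promoters.

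Mitosis genes were lower too, 35 of 38 with none higher (median -0.65), and 31 of them stood below all other 12 libraries, where 10.1% of tested genes did. KIF20A counted 121, 120.1, 126 and 124 CPM in the WT scramble libraries and 35.6, 37.3, 40.3 and 38.9 in the truncation knockdown libraries. KIF20A, a kinesin of cytokinesis, changed by -1.69 ± 0.06, with every truncation knockdown library below every WT scramble library. AURKB counted 147, 135, 137 and 159 CPM in the WT scramble libraries and 46.9, 48.0, 44.3 and 45.3 in the truncation knockdown libraries, a change of -1.65 ± 0.06 in this kinase of the chromosomal passenger complex. The centromeric histone CENPA changed by -1.18 ± 0.07 and the kinetochore gene SPC25 by -1.12 ± 0.08. Members that were not called were PRC1 (-0.28 ± 0.25), KIF4A (-0.11 ± 0.06) and SKA1 (-0.10 ± 0.07), of which KIF4A and SKA1 were called lower with offsets centred by GC content. The cell cycle homology region, TTTGAA, was in 18 of 33 listed mitosis promoters on either strand (54.5%) and in 13.6% of all promoters, and CCAAT was in 25 of 33 (75.8%) and in 33% of all. TTTGAA was in 3 of 28 proteasome promoters (10.7%). Windows of CENPA, SPC25 and CDC20 (-0.99 ± 0.05) are shown as examples of the fallen group, picked among the genes that hold TTTGAA. They are CENPA at chr2:26785806-26786055 on the plus strand, SPC25 at chr2:168890431-168890680 on the minus strand and CDC20 at chr1:43358731-43358980 on the plus strand. Capitals mark TTTGAA or its reverse complement, which CDC20 holds once each.
CENPA: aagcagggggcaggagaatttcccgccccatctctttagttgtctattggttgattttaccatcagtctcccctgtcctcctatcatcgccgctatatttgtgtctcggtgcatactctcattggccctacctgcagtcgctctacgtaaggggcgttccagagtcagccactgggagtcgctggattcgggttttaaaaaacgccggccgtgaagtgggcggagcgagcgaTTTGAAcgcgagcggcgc
SPC25: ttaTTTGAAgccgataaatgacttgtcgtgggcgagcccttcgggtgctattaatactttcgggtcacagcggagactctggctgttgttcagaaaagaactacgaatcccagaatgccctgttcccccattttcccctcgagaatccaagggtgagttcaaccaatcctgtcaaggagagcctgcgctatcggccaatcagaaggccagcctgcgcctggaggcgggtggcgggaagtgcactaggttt
CDC20: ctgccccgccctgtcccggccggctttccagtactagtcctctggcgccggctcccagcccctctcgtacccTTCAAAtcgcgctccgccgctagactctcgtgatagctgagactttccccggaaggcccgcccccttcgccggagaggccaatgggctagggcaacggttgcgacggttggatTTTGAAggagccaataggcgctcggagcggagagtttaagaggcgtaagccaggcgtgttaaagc

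**Figure D3:**
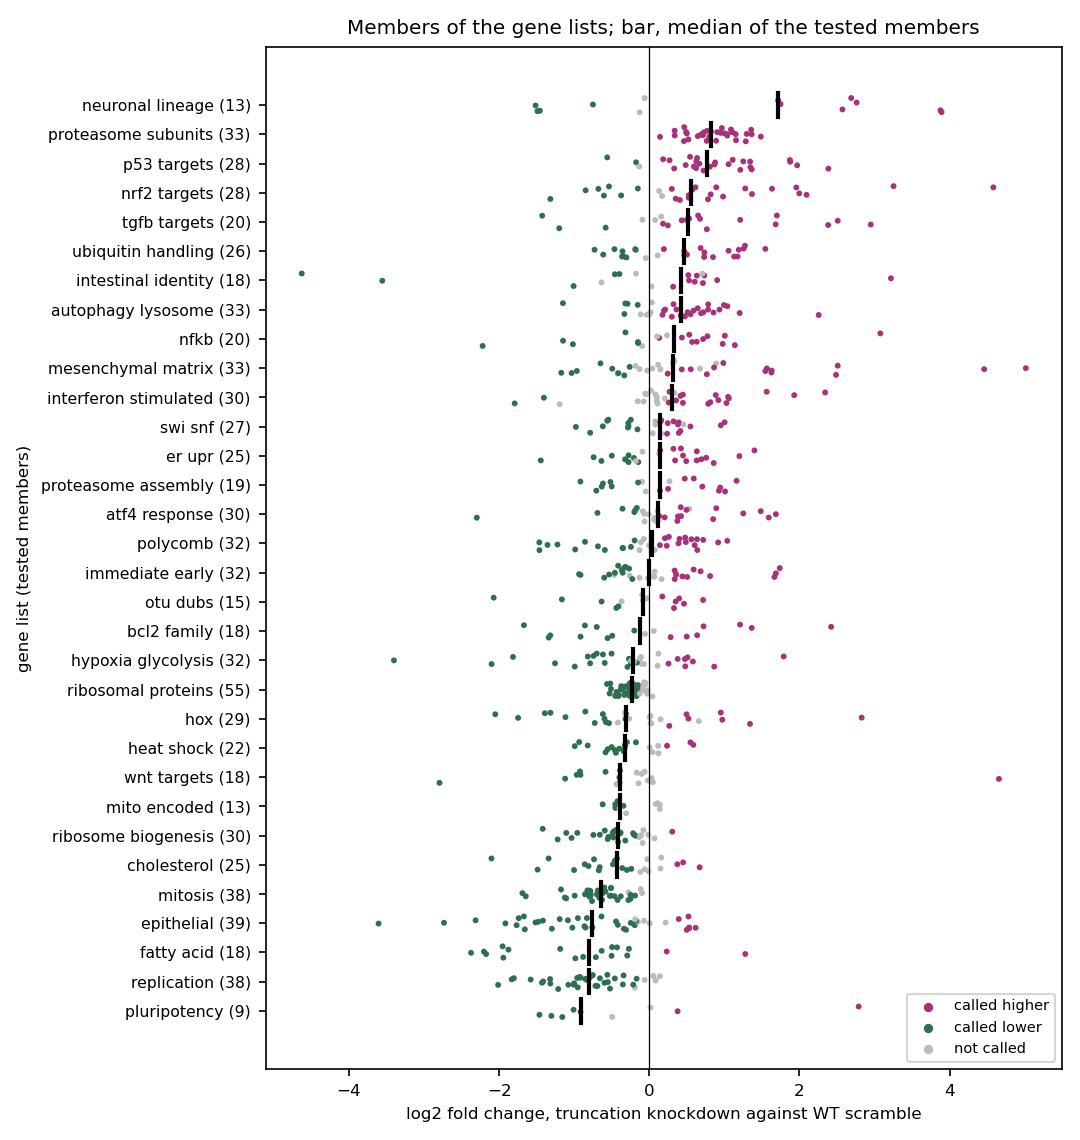
Each point is a tested member of a gene list, placed by its log2 fold change between truncation knockdown and WT scramble cells (x axis), and each black bar is the median of the list (rows, with the number of tested members). All proteasome subunits lie to the right of 0 (median 0.82), and the replication and mitosis lists lie mostly to the left (medians -0.80 and -0.65).

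Lipid synthesis genes were lower. In the fatty acid list 16 of 18 were lower and 2 higher (median -0.80). SCD counted 2008, 2094, 2206 and 2006 CPM in the WT scramble libraries and 367, 376, 519.8 and 341 in the truncation knockdown libraries. SCD, the desaturase that makes monounsaturated fatty acids, changed by -2.37 ± 0.12. FASN counted 2795, 2771, 2729.8 and 2509 CPM in the WT scramble libraries and 556, 554, 643 and 642 in the truncation knockdown libraries, and the change of fatty acid synthase was -2.17 ± 0.08. Both genes were among the 5 most expressed with a change of at least 2-fold. SREBF1, a transcription factor that drives these genes, went from between 393 and 463 to between 83.4 and 109.7 CPM (-2.20 ± 0.12) and MLXIPL, the carbohydrate response factor, changed by -1.95 ± 0.10. The members called higher were ME1 (1.28 ± 0.06), which makes NADPH, and LPIN1 (0.23 ± 0.07). Of the cholesterol genes 16 of 25 were lower and 3 higher (median -0.43). INSIG1, a regulator of sterol sensing, was at -1.49 ± 0.09 and the lanosterol synthase LSS at -1.34 ± 0.09, and the sterol isomerase EBP went from between 16.9 and 21.1 to between 8.98 and 9.71 CPM. HMGCS1 (0.67 ± 0.06), MSMO1 (0.45 ± 0.07) and SC5D (0.37 ± 0.06) were higher.

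In central carbon metabolism 16 of 32 hypoxia and glycolysis genes were lower and 8 higher (median -0.22). The hexokinase HK2 went from between 122 and 137 to between 24.6 and 40.5 CPM (-2.10 ± 0.15) and the phosphofructokinase PFKL changed by -1.81 ± 0.11, while ADM, a vasoactive peptide, rose by 1.79 ± 0.07. CA9, a carbonic anhydrase, had 35 counts in WT scramble and 3 in truncation knockdown libraries, a ratio of 12.2 (95% exact interval 3.84 to 61.8).

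Genes of protein synthesis were lower by smaller amounts. Of 55 ribosomal protein genes 41 were called lower and none higher (2 with offsets centred by GC content, median -0.23), with RPL34 at -0.56 ± 0.07, RPL28 at -0.53 ± 0.07, RPL3 at -0.52 ± 0.06 and RPL27A at -0.51 ± 0.06. Many of them have processed pseudogenes that can share reads. Ribosome biogenesis factors had 22 of 30 lower and 1 higher (median -0.41), led by BOP1 (-1.42 ± 0.07), the snoRNP protein NOP56 (-1.22 ± 0.06), TSR1 (-1.11 ± 0.05) and RRP9 (-1.04 ± 0.06). Of the 13 protein-coding mitochondrial genes 7 were called lower, among them MT-CO2 at -0.62 ± 0.13 and MT-CO3 at -0.45 ± 0.13. That count fell to 4 by DESeq2's Wald test, to 4 without WT scramble replicate 4 and to 3 without truncation knockdown replicate 2. The share of counts from mitochondrial genes was 3.76 to 5.41% in WT scramble libraries and 3.36 to 4.69% in truncation knockdown libraries. Chaperones of the heat shock response had 14 of 22 lower and 3 higher (median -0.32). The co-chaperones DNAJA4 (-0.99 ± 0.07), DNAJB1 (-0.93 ± 0.06) and FKBP4 (-0.82 ± 0.05) were lower and BAG3 (0.59 ± 0.05) was higher. In the unfolded protein response of the endoplasmic reticulum 13 of 25 were higher and 9 lower, with the chaperone HYOU1 at -1.44 ± 0.06, the co-chaperone DNAJB9 at 1.40 ± 0.09, the vesicle coat gene SEC24D at 1.20 ± 0.07 and CREB3L2 at 0.86 ± 0.07.

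The series title concerns cell type-specific expression. Epithelial genes were lower in 28 of 39 cases and higher in 6 (median -0.76), and 15 fell at least 2-fold. RAB25, an epithelial trafficking GTPase, went from between 53.1 and 56.1 to between 10.3 and 12.1 CPM (-2.31 ± 0.09). ESRP1 counted 140.5, 149, 154 and 138 CPM in the WT scramble libraries and 37.1, 37.0, 45.5 and 34.5 in the truncation knockdown libraries, and this epithelial splicing regulator changed by -1.92 ± 0.09. EPCAM (-0.95 ± 0.06) and the adhesion protein CDH1 (-0.85 ± 0.08) fell without overlap between the groups. The keratins KRT8 (0.53 ± 0.08) and KRT18 (0.52 ± 0.09) and the tight junction gene OCLN (0.62 ± 0.07) rose, so the list did not move one way. Another keratin, KRT19, lay lower, from between 1170 and 1372 to between 904 and 1021 CPM. Of 40 intestinal genes 18 were measured, 9 higher and 5 lower. MUC13, a membrane mucin, rose from between 0.139 and 0.349 to between 1.85 and 2.68 CPM (3.22 ± 0.29). B3GALT5, a glycosyltransferase, changed by -3.56 ± 0.30 and the transcription factor KLF4 by -1.01 ± 0.07. FOXA2, an endoderm factor, had 59 counts in WT scramble and 2 in truncation knockdown libraries, both in replicate 3, a ratio of 30.8 (95% exact interval 8.15 to 259.9).

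Matrix and mesenchymal genes had 14 of 33 members higher and 8 lower (median 0.31). Besides SPP1 and SPARC, the collagen COL6A3 rose by 2.49 ± 0.17 to 4.62 CPM and TGFBI by 2.51 ± 0.28 to 2.06 CPM. The mesenchymal factor ZEB1 rose by 1.63 ± 0.11, whereas fibronectin, FN1, was at 0.12 ± 0.10 and not called. TGF-beta targets had 14 of 20 higher and 3 lower (median 0.51), among them the feedback inhibitors PMEPA1 (2.95 ± 0.16) and SMAD7 (2.38 ± 0.13) and the cell cycle inhibitor CDKN2B (1.70 ± 0.07). TGFBI stands in both lists. Of 28 neuronal genes 13 were measured, 7 higher and 4 lower (median 1.71). The ion channel genes ASIC4 (3.88 ± 0.14) and GRIN2C (2.69 ± 0.17), LRP1B and the RNA-binding protein ELAVL3 (2.76 ± 0.44, at 0.735 CPM) led them, and PAX6 rose by 1.71 ± 0.09, while NCAM1 (-1.49 ± 0.31), SNAP25 (-1.46 ± 0.41) and VSNL1 (-1.51 ± 0.08) were lower. ELAVL3 was at most at 0.340 CPM in the other 12 libraries, so it passed the filter on low counts only through the truncation knockdown group (0.412 to 1.33 CPM). Members can pass in this way, so the counts and median of the neuronal list are not read as its direction. The same limit holds for the intestinal and pluripotency lists. It may hold for other lists with unmeasured members. Among these are Wnt targets (18 of 24 measured), HOX genes (29 of 36), NF-kB targets (20 of 26) and interferon-stimulated genes (30 of 37). Their counts and medians are likewise not read as a direction. Of 15 pluripotency genes 9 were measured, 2 higher and 5 lower, led by ZFP42 (2.79 ± 0.52), LIN28A (-1.46 ± 0.34) and the telomerase gene TERT (-1.30 ± 0.09). ZFP42 and LIN28A averaged under 1 CPM in both groups.

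Developmental signalling genes were mixed. Wnt targets had 9 of 18 lower and 1 higher (median -0.39). NOTUM counted 38.0, 38.2, 34.6 and 40.4 CPM in the WT scramble libraries and 4.99, 5.60, 4.39 and 6.83 in the truncation knockdown libraries. NOTUM, a secreted Wnt inhibitor, changed by -2.79 ± 0.11, the transcription factor TCF7 by -1.12 ± 0.06 and the receptor EPHB2 by -0.97 ± 0.10. DKK4, also a Wnt inhibitor, was the member called higher, with 2 counts in WT scramble, both in replicate 1, and 65 in truncation knockdown libraries, a ratio of 31.2 (95% exact interval 8.29 to 262.8). In the HOX clusters 13 of 29 measured genes were lower and 7 higher. HOXB9 went from between 50.0 and 51.4 to between 17.2 and 21.6 CPM (-1.39 ± 0.07), and HOXC4 (-2.05 ± 0.42) and HOXC11 (-1.75 ± 0.37) were lower at levels under 1 CPM. Without truncation knockdown replicate 3 the log2 fold change of HOXC4 was -2.86. Polycomb genes had 15 of 32 higher and 12 lower, with EPOP (-1.46 ± 0.09), SCMH1 (-1.46 ± 0.09), PHF19 (-1.36 ± 0.06) and the histone-binding RBBP4 (-1.22 ± 0.05) all lower. Of the SWI/SNF remodeller 12 of 27 were higher and 10 lower. Its ATPases moved in opposite directions, SMARCA2 by 1.00 ± 0.06 and SMARCA4 by -0.79 ± 0.05, with SS18 at -0.98 ± 0.06 and BCL7A at 0.95 ± 0.05.

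Of the interferon-stimulated genes 16 of 30 were higher and 2 lower (median 0.30), and 9 were lower with no filter on low counts. IFIT2 rose from between 1.19 and 2.46 to between 4.66 and 8.03 CPM (1.93 ± 0.20) and IFI44 by 2.34 ± 0.40, while BST2, which tethers enveloped viruses, changed by -1.79 ± 0.31. OAS1 was at 1.56 ± 0.53, a call lost without truncation knockdown replicate 2 (adjusted p by edgeR = 0.0764). WT scramble replicate 4, the library with leukocyte marker RNA, held 1.54 CPM of IFI44 against 0.104 to 0.384 in the other 3, and without it the log2 fold change of IFI44 was 3.74 and the log2 fold change of OAS1 was 2.20. Of 20 measured NF-kB targets 11 were higher and 6 lower, with the cytokine IL1A at 3.08 ± 0.37 (the log2 fold change of IL1A was 3.72 without WT scramble replicate 4), the inhibitor of apoptosis BIRC3 at 1.14 ± 0.10, the adhesion molecule ICAM1 at -2.22 ± 0.16 and TRAF1 at -1.15 ± 0.19. Immediate early genes were split, 11 of 32 higher and 12 lower, with MAFF at 1.67 ± 0.10, NR4A3 at 1.74 ± 0.22 and EGR3 at -0.93 ± 0.15. The cytoskeletal genes EZR and TUBB were among the 5 most expressed with a change of at least 2-fold. Ezrin, EZR, which links actin to the membrane, went from between 2171 and 2336 to between 1041 and 1131 CPM (-1.05 ± 0.06), and the tubulin TUBB from between 1365 and 1487 to between 665 and 712 CPM (-1.04 ± 0.05).

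The groups that carry 1 change alone place these values. Truncation scramble against WT scramble gave 7529 called genes (44%), 1005 of them at least 2-fold (5.88%), and WT knockdown against WT scramble gave 8604 (50.3%), 978 at least 2-fold (5.72%). Both share the WT scramble libraries with the combined comparison, so their values are set side by side without a correlation. Adding the knockdown to truncation cells changed 9706 genes (56.7%), 1642 of them at least 2-fold (9.6%), and adding the truncation to knockdown cells changed 7783 (45.5%), 899 at least 2-fold (5.26%). On the principal components of log2(CPM + 1), the leading component carried 51.7% and the next 29.6% of the variance.

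Whether the 2 changes added up was tested by subtracting the effect of the siRNA in WT cells from its effect in truncation cells. This departure from additivity on the log2 scale was called in 974 of 17104 genes (5.69%), 350 positive (2.05%) and 624 negative (3.65%). Among mitosis genes 24 of 38 had a negative departure and none a positive one. Their median was -0.27 in truncation scramble, -0.05 in WT knockdown and -0.65 in truncation knockdown cells, with a median departure of -0.33. KIF20A stood at 123 CPM in WT scramble, 79.9 in truncation scramble, 85.8 in WT knockdown and 38.0 in truncation knockdown cells, a departure of -0.55 ± 0.08 (adjusted p = 0.000114 by edgeR). For AURKB the departure was -0.43 ± 0.09 and for GINS1 -0.48 ± 0.09. In the cholesterol list 10 of 25 were negative and none positive, with medians of -0.29, 0.15 and -0.43 in the same order. Replication had 9 of 38 negative and the fatty acid list 6 of 18, with FASN at -0.50 ± 0.11 and SREBF1 at -0.68 ± 0.16. In the ATF4 list 7 of 30 were positive and 1, SHMT2 (-0.48 ± 0.10), negative. Proteasome subunits had a median departure of 0.04 and ribosomal proteins one of 0.00, with no member of the latter called. The list counts of departures depended on the setting. Over 14 alternatives the negative ones numbered 16 to 28 among mitosis, 5 to 16 among cholesterol, 6 to 15 among replication and 3 to 7 among fatty acid genes, and the positive ATF4 ones 3 to 11. The lowest counts of the mitosis, cholesterol and replication lists came with upper-quartile scaling, for cholesterol also without WT scramble replicate 2. The highest came with offsets centred by GC content, for mitosis and replication also with DESeq2's Wald test. Leaving out 1 library also lowered the cholesterol count, to 5 without WT scramble replicate 2 and 6 without WT scramble replicate 1 or truncation knockdown replicate 4, the fatty acid count, to 3 without replicate 1 or 2 of either group, and the ATF4 count, to 4 without replicate 1 of either group and 3 without truncation knockdown replicate 2. KIF20A, AURKB, GINS1, FASN, SREBF1 and SHMT2 were called in all 14. No alternative left out a WT knockdown or truncation scramble library, although the departure rests on them too. WT knockdown replicate 2 held 146 CPM of SREBF1, against 238 to 255 in the other WT knockdown libraries. It held 1271 CPM of FASN, against 1666 to 1738. How the departures depend on that library was not tested.

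**Figure D4:**
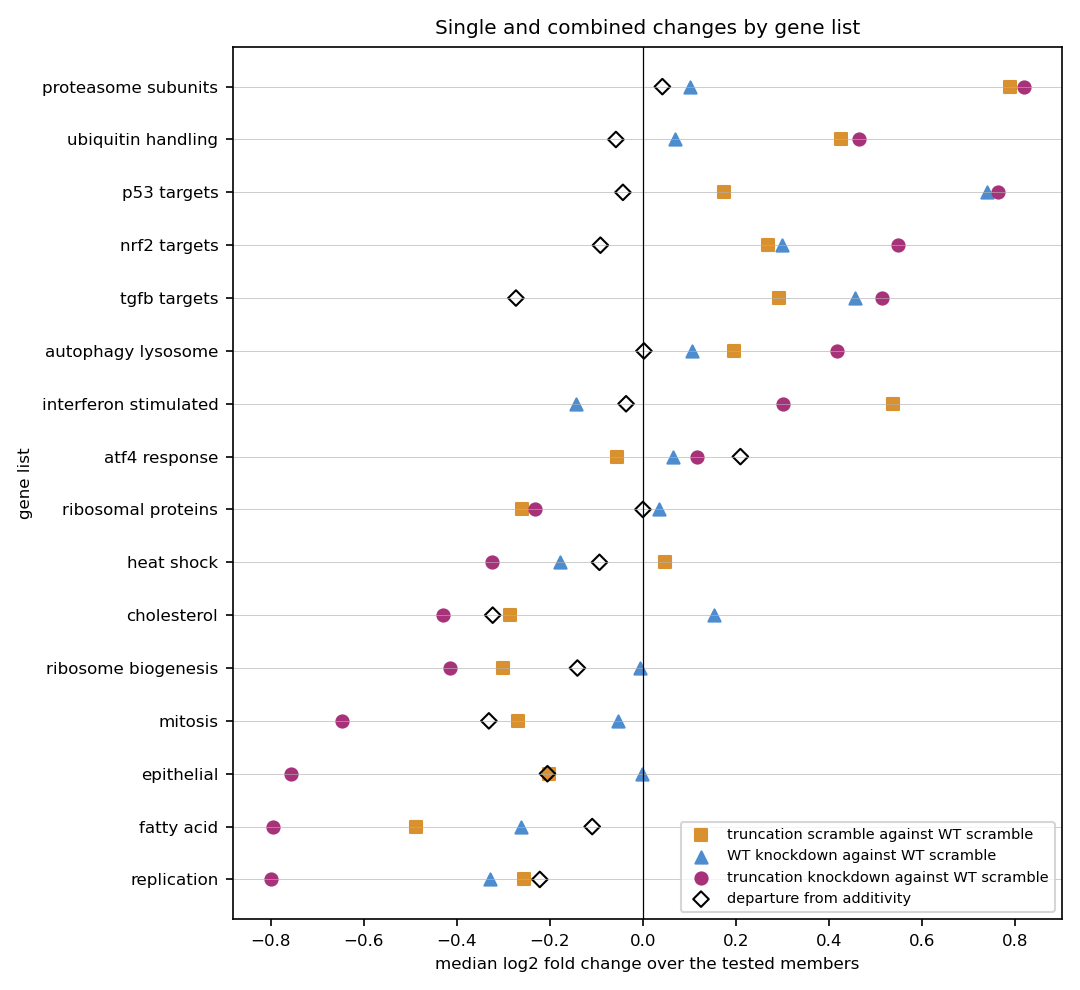
For 16 gene lists (rows) the x axis gives the median log2 fold change against WT scramble of truncation scramble (squares), WT knockdown (triangles) and truncation knockdown cells (circles), and the median departure from additivity (diamonds). The proteasome median is 0.79 with the truncation and 0.10 with the knockdown, the p53 median 0.17 and 0.74, and the mitosis median of -0.65 in the combined cells lies left of both single values.

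Some genes went beyond both single changes in all 4 truncation knockdown libraries. ASIC4 stood at 0.847 CPM in WT scramble, 0.834 in truncation scramble, 4.94 in WT knockdown and 12.5 in truncation knockdown cells, so the truncation alone left it near the WT scramble level and the departure was 1.36 ± 0.23 (adjusted p = 0.000681 by edgeR). GRIN2C, a glutamate receptor subunit, stood at 3.53 CPM in WT scramble, 3.04 in truncation scramble, 8.96 in WT knockdown and 22.8 in truncation knockdown cells, with a departure of 1.56 ± 0.25. Its truncation knockdown libraries ranged from 17.6 to 32.2 CPM. The transporter ABCB6 (2.64 ± 0.17) and ENSG00000251615 (2.57 ± 0.15) also rose beyond both. PRF1, which encodes perforin, stood at 29.7 CPM in WT scramble, 26.9 in truncation scramble, 8.58 in WT knockdown and 3.36 in truncation knockdown cells. It changed by -3.14 ± 0.16 against WT scramble, with a departure of -1.21 ± 0.22 (adjusted p = 0.00204 by edgeR). The means of SCD were 2079 CPM in WT scramble, 1027 in truncation scramble, 1462 in WT knockdown and 401 in truncation knockdown cells, a departure of -0.85 ± 0.16. The proteoglycan CSPG4 (-2.13 ± 0.12) and IGSF9 (-2.38 ± 0.14) also fell beyond both.

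For other genes the single changes were opposed. VSNL1, a neuronal calcium sensor, stood at 53.6 CPM in WT scramble, 148 in truncation scramble, 9.75 in WT knockdown and 18.7 in truncation knockdown cells, and the combined change was -1.51 ± 0.08. SUSD2, a membrane protein, stood at 20.4 CPM in WT scramble, 137 in truncation scramble, 6.15 in WT knockdown and 39.4 in truncation knockdown cells, a combined change of 0.95 ± 0.07 with a departure of -0.06 ± 0.11 that was not called. TM4SF18 stood at 3.10 CPM in WT scramble, 23.7 in truncation scramble, 0.920 in WT knockdown and 4.94 in truncation knockdown cells (0.67 ± 0.11). B3GALT5 and the Wnt regulator DACT1 had the opposite order. B3GALT5 stood at 5.27 CPM in WT scramble, 0.119 in truncation scramble, 16.4 in WT knockdown and 0.444 in truncation knockdown cells, and DACT1 at 4.76 CPM in WT scramble, 0.450 in truncation scramble, 12.8 in WT knockdown and 1.52 in truncation knockdown cells (-1.65 ± 0.17). The integrin ITGAX, itself a leukocyte marker, changed by 0.82 ± 0.22, and by 1.22 without WT scramble replicate 4, where it was at 6.25 CPM. SPARC and AKR1B10 rose by less than the sum, with departures of -1.52 ± 0.17 and -2.19 ± 0.21 (adjusted p = 1.12e-05 and 4.93e-07 by edgeR). AKR1B10 stood at 0.533 CPM in WT scramble, 7.22 in truncation scramble, 4.38 in WT knockdown and 12.9 in truncation knockdown cells. BMF rose by more than the sum (1.13 ± 0.20), from 1.26 CPM in WT scramble, 0.663 in truncation scramble, 5.82 in WT knockdown and 6.76 in truncation knockdown cells.

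**Figure D5:**
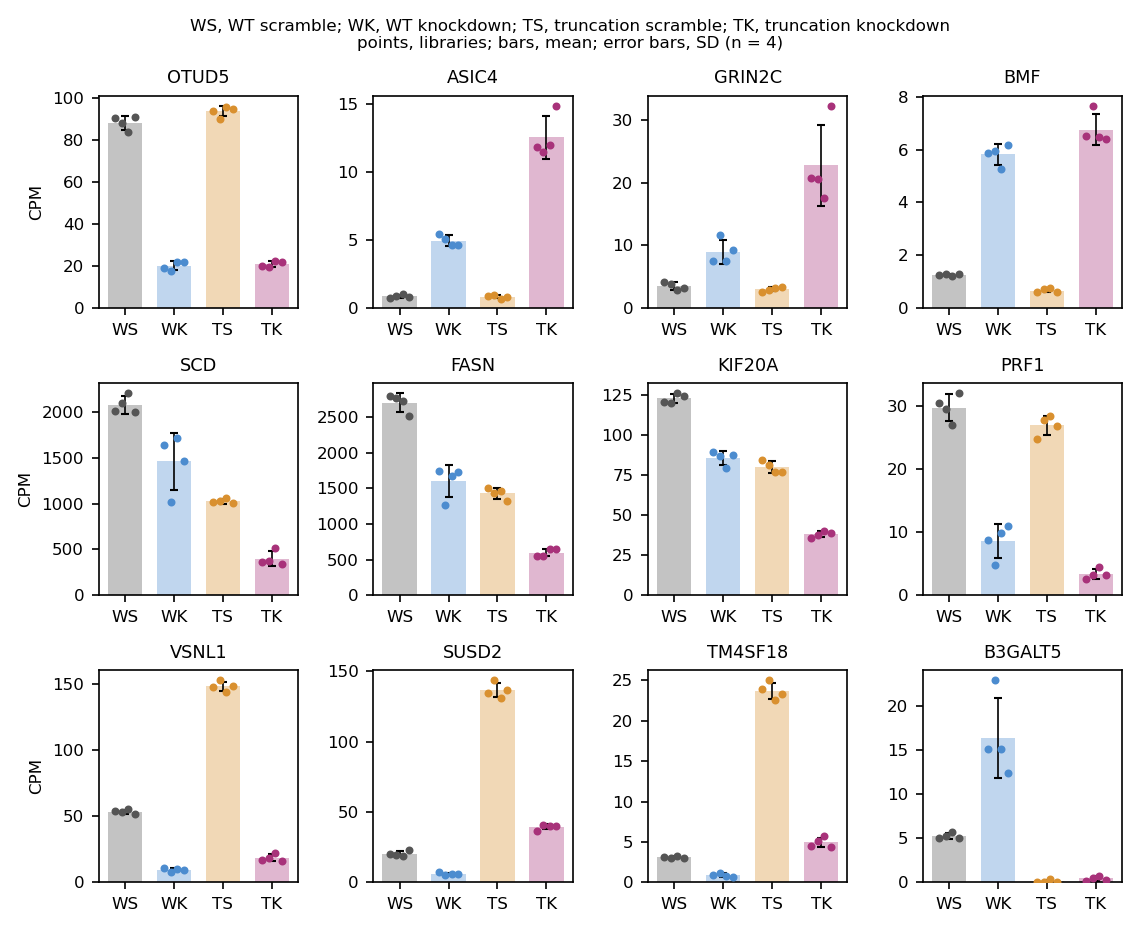
Levels in CPM (y axis) of 12 genes in the 4 groups (x axis, WS for WT scramble, WK for WT knockdown, TS for truncation scramble, TK for truncation knockdown), with libraries as points, means as bars and SD (n = 4) as error bars. OTUD5 falls to 20.1 and 21.0 CPM in the knockdown groups, KIF20A is lowest in TK at 38.0 CPM, and VSNL1 rises to 148 CPM in TS but is at 18.7 in TK.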

How the data were processed

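RNA sequencing was done on 16 HCT116 libraries, 4 in each of 4 groups. The libraries were made from column-purified RNA (RNeasy Mini Kit) by a commercial service that used an in-house protocol based on Nextera XT, per the labels' protocols. The raw counts per Ensembl gene (60668 genes, 43699 with a count) were used as deposited by the authors, and every entry named a gene. The submitters' processing notes name the build hg38 and the tools limma, edgeR, DESeq2 and STAR 2.7.3a, without a role or order. Which program counted the reads, with which annotation and strand setting, is not given in the sources used here. Other deposited tables of the same libraries were not used here.

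Libraries were grouped by library name, genotype and treatment label. The labels call replicates biological but name no separate cultures, and the p-values therefore reflect the spread among these libraries, which may be technical. No replicate pair held identical counts (chi-square per degree of freedom 2.82 to 22.7). Same-numbered libraries of the compared groups did not deviate together (r from -0.24 to 0.14), so the numbers were not used as pairs.

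Genes were kept by edgeR's filterByExpr over the 4 groups (17104 genes, holding 99.8% or more of each library's counts). After TMM scaling, a quasi-likelihood model with a coefficient for each group was fitted in edgeR 4.0.16 under R 4.3.3 over all 16 libraries, with 12 residual degrees of freedom and a common biological coefficient of variation of 7.25%. Tests are two-sided contrasts with Benjamini-Hochberg adjustment over all tested genes, and a gene is called at an adjusted p under 0.05. Each SE was computed as the absolute log2 fold change over the root of its F statistic. Fitted fold changes use a prior count of 0.125. CPM values use the TMM-scaled library sizes. Intervals of count ratios are exact binomial at 95% and cover counting error only. Analysis code was tested on simulated data for the main contrast with 200 changed genes, far fewer than were called here. Of those 200, 86% were recovered (70% at 1.5-fold and 82% at 2-fold), and 2.82% of calls were false. The test of departure from additivity was not simulated.

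The members and gene lists were chosen with earlier results of these data known, and lists carry counts and medians with no test. Named genes are OTUD5 and PSMD4. To these come the 15 largest and 15 smallest changes among called genes that averaged a log2 CPM of 1 or more and showed no overlap, and up to 4 called members per list with the largest changes. For changes beyond both single ones 8 genes per direction were taken, for opposed single changes 6, and 5 by expression among at least 2-fold changes. Further list members named beside these, and those with a printed promoter, were chosen after their values were seen. Some genes that this rule takes are not reported here. Of the 34 lists, those of leukocyte and of fibroblast and endothelial markers served as checks. Promoter windows come from RefSeq (GRCh38.p14), and gene coordinates, 1-based on GRCh38, from GENCODE's annotation. Alternatives were upper-quartile and DESeq2 scaling, DESeq2 1.42.0's Wald test, no filter, the 8 libraries alone, a replicate block and each of those 8 libraries left out. Offsets centred by GC content and the values without WT scramble replicate 4 were added after seeing the data.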

Additional observations from a re-analysis of the deposited data

Results flagged for a closer look

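Within the 4 WT scramble and the 4 truncation knockdown libraries, each library was checked for its gap to the nearest other library of its group. WT knockdown and truncation scramble libraries were not checked in this way. A library was looked at again when the gap, as a share of the range of the group, exceeded Dixon's critical value at 95%. Chance alone gives about 1 such case in 20 groups, and 364 gene and group pairs were looked at, of which 26 met it. The summed leukocyte markers of WT scramble replicate 4 met it as well (36.3 CPM against 10.1 to 11.5). In WT scramble replicate 4 the genes were BCL2L2 at 50.4 CPM against 49.2 to 49.3, LAPTM5 at 3.18 CPM against 0.208 to 0.314, NLRP4 at 2.32 CPM against 1.28 to 1.45, PSMA2 at 2 CPM against 2.74 to 2.87, PTPRC at 11.6 CPM against 0.0693 to 0.242 and RPL34 at 242 CPM against 226 to 228. WT scramble replicate 1 held DKK4 at 0.0698 CPM against 0 in each of the others and SMARCA2 at 26.6 CPM against 28.4 to 28.7. Set apart in WT scramble replicate 2 were EPHB2 at 49.2 CPM against 46.8 to 47.2 and PMEPA1 at 0.485 CPM against 0.678 to 0.698. For WT scramble replicate 3 the cases were ZFP42 at 0.0692 CPM against 0.0347 to 0.0357. The library truncation knockdown replicate 1 had SUSD2 at 36.7 CPM against 40.1 to 40.5. Truncation knockdown replicate 2 showed BMF at 7.65 CPM against 6.39 to 6.53 and CA9 at 0 CPM against 0.033 to 0.0335. Found in truncation knockdown replicate 3 were FOXA2 at 0.066 CPM against 0 in each of the others, HOXC4 at 0.363 CPM against 0.0666 to 0.103, HS3ST1 at 14.3 CPM against 11.9 to 12.2, NOP56 at 150.4 CPM against 132 to 133, NPLOC4 at 748 CPM against 781 to 784, OSGIN1 at 212 CPM against 259 to 266, OTUD6B at 19.2 CPM against 15.6 to 16.1, PTPRC at 0.429 CPM against 0.1 to 0.133 and SHMT2 at 69.9 CPM against 56.4 to 58.7. In truncation knockdown replicate 4 there were ASIC4 at 14.8 CPM against 11.4 to 12, LPIN1 at 37.2 CPM against 32.7 to 33.2 and PSMD14 at 178 CPM against 206 to 209. What set these values apart was not tested. In PTPRC and LAPTM5 the values of WT scramble replicate 4 decide the call.

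The knockdown effect differed between the genotypes for 51 of the 182 named genes, by edgeR's test of the departure from additivity at an adjusted p under 0.05. Over all tested genes 5.69% did. The named genes were picked partly for large changes and changes beyond both single ones, so their share is not a result. Positive differences on the log2 scale, truncation minus WT cells, were found for GRIN2C (1.56), ASIC4 (1.36), BMF (1.13), ABCB6 (0.97), PSMA2 (0.73), ADGRF1 (0.68), CHAC1 (0.63), PSMD4 (0.54), LPIN1 (0.52) and KLF4 and KRT18 (0.46). The most negative were those of AKR1B10 (-2.19), TGFBI (-1.72), SPARC (-1.52), PRF1 (-1.21) and RAB7B and SPP1 (-1.10). Further negative differences were those of SCD (-0.85), HK2 (-0.80), CSPG4 (-0.77), FN1 (-0.76), CDKN2B (-0.74), IGSF9 (-0.70), SREBF1 (-0.68), SYK (-0.66), HMOX1 (-0.65) and PFKL (-0.61). Smaller ones were those of DDN (-0.58), KIF20A (-0.55), VSNL1 (-0.53), FASN, HYOU1, NOTUM and TSR1 (-0.50) and GINS1 and SHMT2 (-0.48). The smallest were those of INSIG1 (-0.44), AURKB (-0.43), LSS (-0.42), CENPA (-0.40), CDC20 (-0.39), BOP1 and NOP56 (-0.38), SPC25 (-0.37), RBBP4 (-0.35), KIF4A (-0.33), TCF7 (-0.32), EPCAM (-0.31), SS18 (-0.30) and DNAJB1 and FKBP4 (-0.28). Of these 51 genes, 34 were called in all 14 alternatives and none changed sign. The others, which lost the call in 1 or more, were ABCB6, BOP1, CHAC1, DNAJB1, EPCAM, FKBP4, IGSF9, INSIG1, KIF4A, KRT18, LSS, NOTUM, PSMA2, SPC25, SS18, SYK and TCF7. The reasons for these differences were not tested, and no alternative left out a WT knockdown or truncation scramble library.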

How the results depend on the processing

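Across upper-quartile scaling, DESeq2 size factors in edgeR, DESeq2's Wald test, no filter on low counts, the 8 libraries alone, a replicate block and offsets centred by GC content, genes called higher in truncation knockdown cells numbered 5487 to 5869 and genes called lower 5632 to 5947. At least 2-fold changes ranged from 1166 (the 8 libraries alone) to 1611 (no filter) higher. Lower ones ranged from 1417 (offsets centred by GC content) to 2074 (no filter). Leaving out each of the 8 libraries in turn gave 5372 to 5544 higher and 5524 to 5693 lower, with at least 2-fold changes of 1254 to 1390 and 1638 to 1787, and OTUD5 between -2.12 and -2.05. The count of genes departing from additivity was less steady, 974 in the reported fit, 1470 by DESeq2's Wald test, 1550 with offsets centred by GC content and 653 to 1107 with 1 library left out, and the cause was not tested. The replicate block, whose numbers did not pair the samples, gave 5723 higher, 5751 lower and 1150 departures; it changed no call of a named gene's fold change, and the departure of SYK lost its call (as under 6 other alternatives). The log2 fold change of PTPRC turned to 0.24 without WT scramble replicate 4 (-4.71 to 0.24 with each library left out), and the log2 fold change of FDXR (0.16) and the log2 fold change of PSMD14 (-0.0098) turned with offsets centred by GC content. Of 1020 counts of called list members over these settings, 995 stayed within 1.5 times the reported count. Genes at a few counts per library, such as FOXA2, DKK4 and CA9, are limited by depth, and their ratios carry wide intervals.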

Other observations

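The change varied with the base composition of genes. Over 12392 genes averaging a log2 CPM of 1 or more, ordered by the GC content of their longest annotated transcript and divided into 8 equal groups, the median log2 fold change between truncation knockdown and WT scramble cells fell from 0.15 in the group of lowest GC to -0.37 in the group of highest GC. In the latter 22.1% of genes were called higher and 60.1% lower. The median of that group lay between -0.379 and -0.312 in each truncation knockdown library, relative to the WT scramble mean, and between -0.105 and 0.0761 in each WT scramble library. In the same group the median was -0.286 in WT knockdown and -0.0971 in truncation scramble cells. Gene span showed the opposite direction, with -0.229 in the shortest and 0.154 in the longest of 8 groups. Short genes of high GC had a median of -0.215 and long genes of low GC one of 0.165, whereas long genes of high GC (0.0009) and short genes of low GC (0.00761) lay near 0. Whether composition bears on the libraries or on the cells was not tested.

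Gene classes also differed. Of 13429 protein-coding genes 36.2% were called higher and 36.5% lower, of 963 antisense genes 24.3% and 20.2%, and of 714 processed pseudogenes 11.2% and 23.1%. Reads of a processed pseudogene and its parent gene can be shared, and the counting is not given in the sources used here.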
